A study of Homo sapiens with 40 samples.

Results

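The chromatin of 10 genes that name type 2 diabetes risk loci was described in EndoC-βH3 cells of a senescent and a non-senescent state. The genes were TCF7L2, CDKAL1, IGF2BP2, HHEX, JAZF1, ADCY5, DGKB, ARAP1, WFS1 and ZMIZ1, of 19676 protein-coding genes in GENCODE 44. Peaks were given to a gene if they lay within 2 kb of one of its protein-coding start sites, else in its body, else if that gene held the nearest start within 100 kb of the peak centre. The genes took 120 of 51489 H3K27ac peaks and 79 of 51457 CTCF peaks, and 0 peaks fell to more than 1 of them. EndoC-βH3 is a human pancreatic beta cell line, labelled WT, with an immortalizing transgene that a tamoxifen-activated Cre recombinase can excise. Senescent cells had been treated for 3 weeks with 4-hydroxytamoxifen (4-OHT), non-senescent cells had not, and both states carried the transgene and the Cre construct at the start. H3K27ac and CTCF had each been profiled by ChIP-seq in 3 senescent and 3 non-senescent libraries, and nothing in the labels says whether replicates were separate cultures. In this design, excision of the transgene, the agent itself and senescence cannot be told apart.

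Genome-wide association studies name a risk locus after a nearby gene, and for most such loci the gene through which the risk acts is still debated. Several of these genes have known roles in beta cells, in Wnt signalling, in insulin secretion and in the endoplasmic reticulum. H3K27ac, the acetylation of histone H3 at lysine 27, marks active promoters and enhancers. CTCF is a zinc finger protein that binds DNA and, with cohesin, anchors chromatin loops.

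All values below come from the deposited comparison of the 2 states, which gives each peak a mean normalized read count, a log2 fold change (senescent over non-senescent) and its standard error (SE). Library by library values are not given there, so the spread between libraries enters only through the SE and the adjusted p. Where a level is given for each state, it was estimated from the mean count and the fold change on the assumption of 3 and 3 equally weighted libraries, and it carries no error of its own. A peak was called higher or lower at a fold above 1.5 together with an adjusted p under 0.05 for H3K27ac or under 0.2 for CTCF, the thresholds the study used. Coordinates are hg38 as in the deposited tables, which do not say whether starts count from 0 or 1.

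The lines below hold the central 200 bases of 4 H3K27ac peaks outside main promoters, the one with the smallest adjusted p in its direction at TCF7L2, CDKAL1 (both directions) and ADCY5. They were read from hg38 on the plus strand, none of them in an exon. Capitals mark matches to 8 short motifs searched on both strands, the AP-1 motif (TGANTCA), the forkhead motif (TGTTTAC), the homeodomain motif (TAATTA), the GC box (GGGCGG), the E-box (CACGTG), the CCAAT box, the TATA box (TATAAA) and the RFX motif (GTTGCC), where N is any base. The TCF7L2 window held 1 forkhead match, found in 4.08% of the central windows of all H3K27ac peaks. The gained CDKAL1 window held 1 AP-1 match (6.32% of all windows), the ADCY5 window 1 TATA match (12.1%), and the lost CDKAL1 window held none of the 8 motifs. A match describes the letters and is not a bound site.
TCF7L2, lower in senescent cells, chr10:113142739-113142938: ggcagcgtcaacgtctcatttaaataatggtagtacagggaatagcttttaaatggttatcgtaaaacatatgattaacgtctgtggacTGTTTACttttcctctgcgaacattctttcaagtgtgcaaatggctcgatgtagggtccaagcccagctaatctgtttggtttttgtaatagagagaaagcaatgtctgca
CDKAL1, lower in senescent cells, chr6:21104039-21104238: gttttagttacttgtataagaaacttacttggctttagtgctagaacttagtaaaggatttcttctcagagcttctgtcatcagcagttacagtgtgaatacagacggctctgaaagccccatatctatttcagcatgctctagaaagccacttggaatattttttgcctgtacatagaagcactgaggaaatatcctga
CDKAL1, higher in senescent cells, chr6:20811351-20811550: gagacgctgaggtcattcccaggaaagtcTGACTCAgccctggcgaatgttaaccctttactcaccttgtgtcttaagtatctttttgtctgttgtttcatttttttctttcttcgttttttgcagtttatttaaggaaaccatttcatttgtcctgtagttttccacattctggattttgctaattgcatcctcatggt
ADCY5, higher in senescent cells, chr3:123409895-123410094: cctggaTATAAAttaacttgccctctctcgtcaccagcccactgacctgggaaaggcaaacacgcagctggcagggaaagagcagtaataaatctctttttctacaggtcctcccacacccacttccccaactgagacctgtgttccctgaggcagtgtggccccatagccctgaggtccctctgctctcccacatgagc

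HHEX was the 1 member whose main promoter peak was lower past both thresholds, and the 250 bases before its start site, all inside that peak, are shown for that reason. They come from RefSeq (GRCh38.p14), which held 8 of the 10 genes in the table used, JAZF1 and ZMIZ1 not among them. The stretch had 38 CpG dinucleotides and 81.2% G and C. Capitals mark 4 GC boxes, 1 pair of them overlapping, and 1 CCAAT box on the other strand, motifs present in 42.6% and 32.0% of all promoters in the same window.
HHEX promoter, chr10:92689705-92689954, plus strand: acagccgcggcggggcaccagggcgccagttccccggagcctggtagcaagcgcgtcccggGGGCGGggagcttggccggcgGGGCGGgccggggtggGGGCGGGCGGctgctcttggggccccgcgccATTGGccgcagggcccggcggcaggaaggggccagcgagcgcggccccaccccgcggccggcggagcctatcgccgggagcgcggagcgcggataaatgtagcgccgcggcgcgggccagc

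Across the 10 genes, H3K27ac was called lower at 15 peaks and higher at 4 in senescent cells. Of the 15, CDKAL1 held 8, TCF7L2 held 3, JAZF1 held 2, and HHEX and ADCY5 held 1 each. The 4 higher peaks were 2 of ADCY5, 1 of CDKAL1 and 1 of IGF2BP2. No peak was called at DGKB, ARAP1, WFS1 or ZMIZ1, although those genes held 63 of the 120 peaks. The 19 called peaks were 15.8% of the members' peaks, against 22.6% of all H3K27ac peaks called, 9.47% higher and 13.1% lower. The members' share over all 10 genes was thus not above the background. A mean under 50 normalized counts was found in 44.2% of the members' peaks and in 31.4% of all peaks. Among the 67 member peaks with a mean of 50 or more, 14 were called (20.9%, against 25.5% of all such peaks), and among the 53 below it 5 were called (9.43%, against 16.3%). The median log2 fold change was −0.06 over the 120 peaks and 0.01 over all peaks. Both the share and the median depend on the genes with many peaks. Without CDKAL1, 7 peaks were lower and 3 higher, out of 90, with a median of 0.04. Without ZMIZ1, 15 were lower and 4 higher, out of 78, with a median of −0.30. In bulk chromatin, fewer cells with a mark and less mark per cell cannot be told apart.

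**Figure D1:**
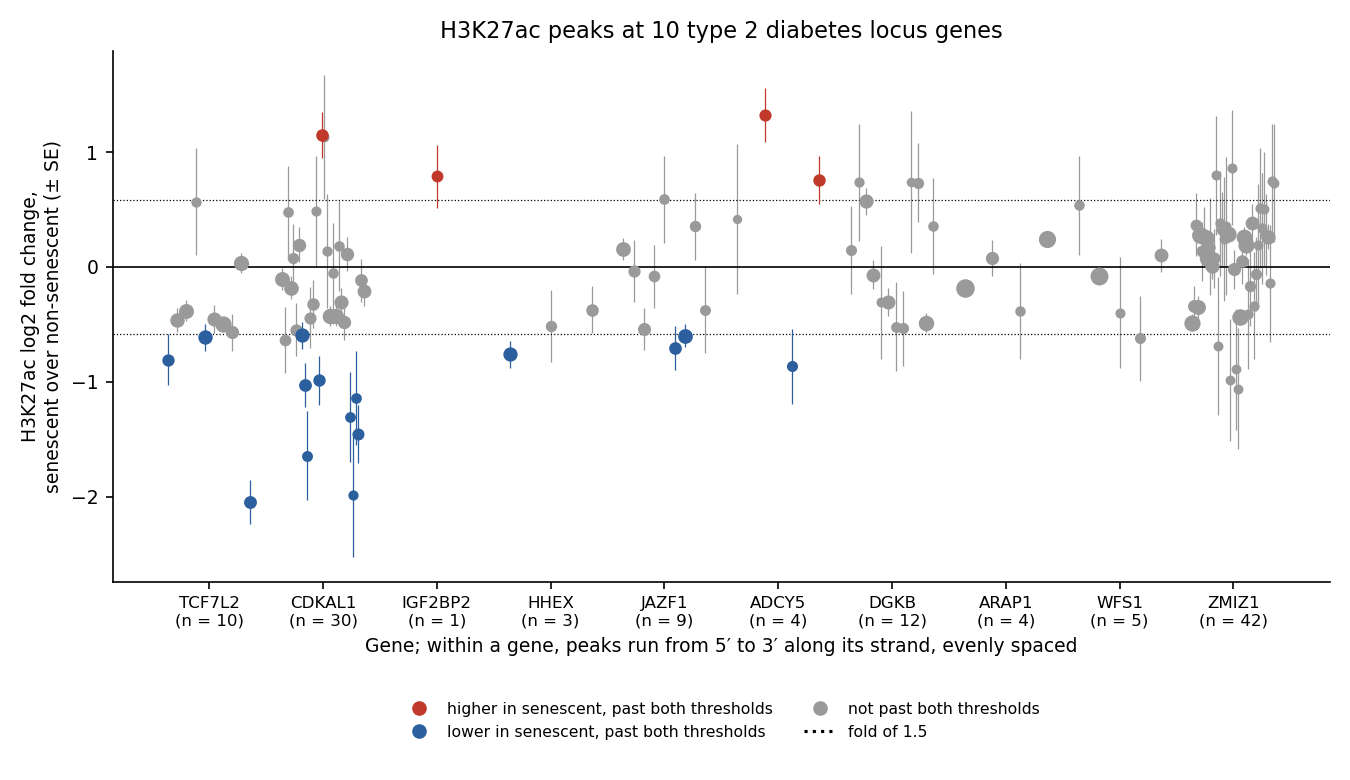
H3K27ac log2 fold change (senescent over non-senescent, y axis, bars are the SE) of each of the 120 peaks, grouped by gene and ordered 5′ to 3′ along the gene's strand. Point size grows with the mean normalized count and dotted lines mark a fold of 1.5. The peaks called lower (blue) lie at TCF7L2, CDKAL1, HHEX, JAZF1 and ADCY5, and the 42 grey ZMIZ1 peaks spread to both sides of 0 with none called.

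The members that regulate transcription were TCF7L2, HHEX, JAZF1 and ZMIZ1. TCF7L2 (ENSG00000148737.18, chr10:112950247-113167678, plus strand) encodes a high mobility group box factor that acts with β-catenin in Wnt signalling. H3K27ac was lower in senescent cells at an adjusted p under 0.05 in 8 of its 10 peaks and higher in 0, and 3 of the 8 also passed the fold. Of all H3K27ac peaks, 39.2% passed that adjusted p alone, 20.3% lower and 18.9% higher. The TCF7L2 peaks had a median mean count of 364 and a median SE of 0.12, against 119 and 0.19 over all peaks. The shares of all peaks are thus not matched to them for coverage. The largest fall lay deep in the gene, over exon 7 and within 2 kb of the start site of a shorter transcript (113141716 to 113143960). There the estimated level went from 211.7 to 51.2 normalized counts, a log2 fold change of −2.05 ± 0.19 (adjusted p = 6.96e-25). This peak was also a listed enhancer of the non-senescent state alone. A peak upstream of the main start, at −51.3 kb, fell by 0.81 ± 0.22 (111 to 63.6 counts, adjusted p = 0.00129), and it too was an enhancer of the non-senescent list alone. An intronic peak downstream of that start fell by 0.61 ± 0.12 (474 to 311 counts, adjusted p = 2.21e-06).

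Elsewhere in TCF7L2 the differences were smaller, and 5 peaks were lower at an adjusted p under 0.05 but short of the fold. The main promoter peak (112949315 to 112953080, over exons 1 to 3) had an estimated 702 counts in non-senescent and 539 in senescent cells, a log2 fold change of −0.38 ± 0.09 (adjusted p = 0.00014). The peak with the most reads in the gene, 8109 bp wide, went from 1903 to 1347 counts (−0.50 ± 0.07, adjusted p = 9.22e-13). Intronic peaks 48.9 and 85.5 kb from the start gave −0.45 ± 0.12 and −0.57 ± 0.16, and an upstream peak at −34.2 kb gave −0.46 ± 0.11. One well covered peak of the gene stood apart, with 728 counts in non-senescent and 747 in senescent cells (0.04 ± 0.09, adjusted p = 0.77). It lay 110 kb from the start, between the block of smaller differences and the exon 7 peak. The remaining peak, in an intron, had a mean of 20.3 counts and gave 0.57 ± 0.47 (adjusted p = 0.345).

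**Figure D2:**
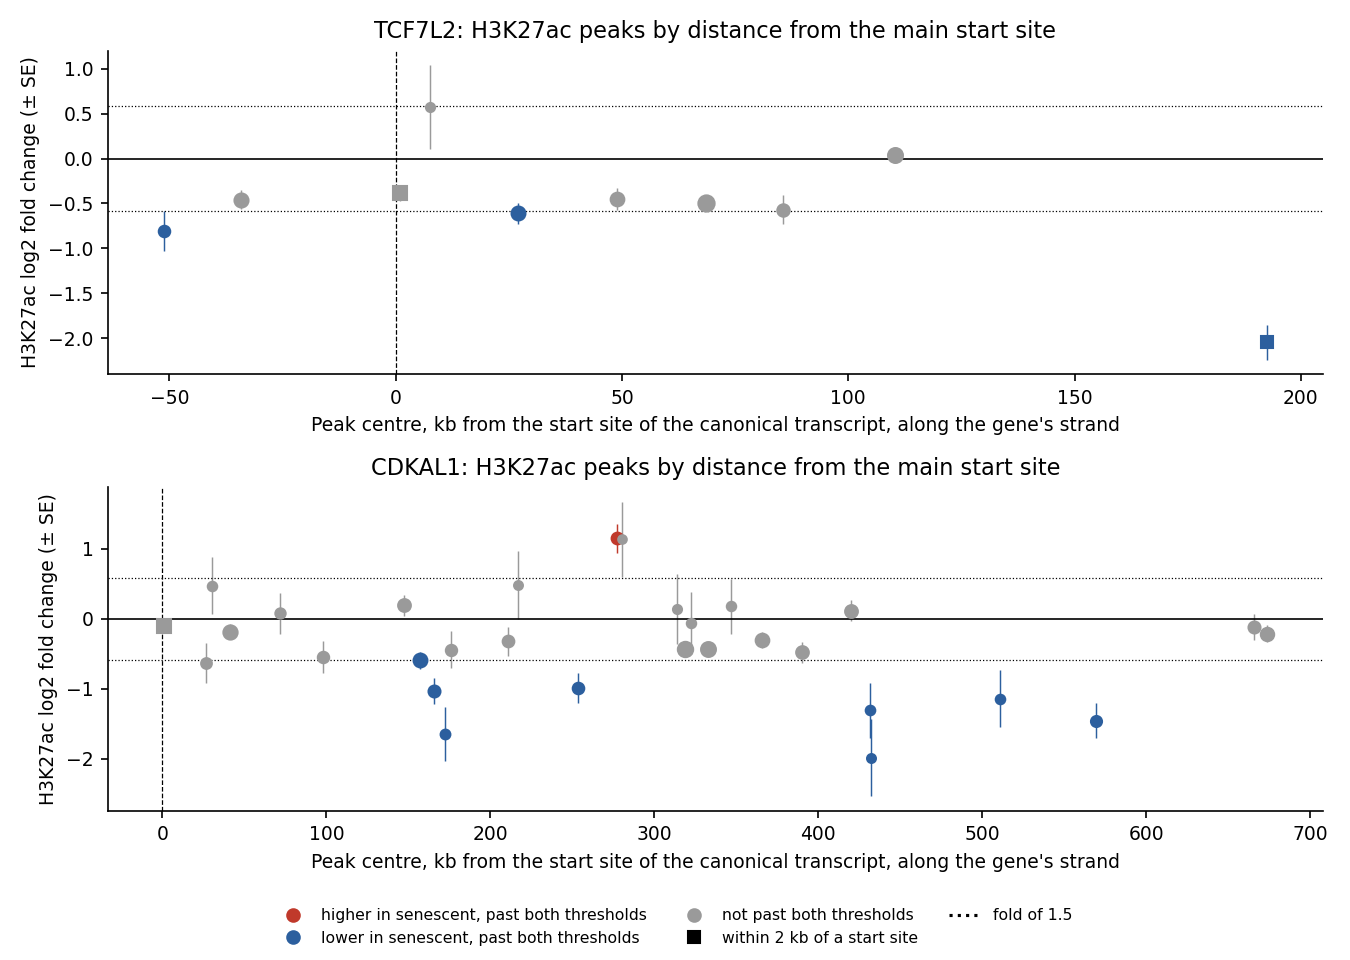
H3K27ac log2 fold change (y axis, bars are the SE) against the distance of the peak centre from the main start site in kb (x axis) for the 10 TCF7L2 peaks and the 30 CDKAL1 peaks. Squares lie within 2 kb of a start site and dotted lines mark a fold of 1.5. At TCF7L2 the lowest value, −2.05, lies 193 kb from the main start, and at CDKAL1 the called peaks lie 157 to 570 kb into the gene while the promoter peak stays near 0.

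HHEX (ENSG00000152804.11, chr10:92689955-92695647, plus strand) encodes a homeodomain repressor that marks delta cells in the islet. Its promoter peak (92689152 to 92693412, over exons 1 to 3) fell from an estimated 457 to 270 normalized counts in senescent cells, a log2 fold change of −0.76 ± 0.12 (95% interval −0.99 to −0.53, adjusted p = 2.03e-09). This was the 1 main promoter of the 7 with a peak that passed both thresholds, beside 14.3% called among all promoter peaks. The other peaks of the gene, 29.7 and 30.9 kb downstream, gave −0.51 ± 0.32 and −0.37 ± 0.21 and did not pass the test (adjusted p = 0.192 and 0.143). Of the other delta cell markers, the SST promoter fell by 0.86 ± 0.29 from a low level (mean 54.2 counts) and LEPR gave 0.14 ± 0.10, and their part in the HHEX value was not tested.

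JAZF1 (ENSG00000153814.13, chr7:27830573-28180795, minus strand) encodes a zinc finger protein that represses nuclear receptor signalling. H3K27ac was lower at an internal start of the gene, while its main promoter did not pass the test. The main promoter peak gave an estimated 502 and 559 counts in non-senescent and senescent cells (0.16 ± 0.10, adjusted p = 0.206). The peak at an internal start over exon 2 (27990602 to 27994526) fell from 635 to 419 counts (−0.60 ± 0.10, adjusted p = 5.77e-08). The neighbouring intronic peak fell from 140 to 85.9 counts (−0.71 ± 0.19, adjusted p = 0.00109). The difference between the main promoter and the internal start was not itself tested.

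ZMIZ1 (ENSG00000108175.19, chr10:79068966-79316519, plus strand), a coactivator of the PIAS-like family, held the most H3K27ac peaks of the 10 genes, 42 over 141 kb. None was called, and log2 fold changes ran from −1.06 to 0.87, with the ends of that range at peaks of low count. Of its 42 peaks, 9 passed the adjusted p alone, 6 higher and 3 lower. The higher peaks included the promoter peak, 12340 bp wide, at 2171 and 2629 counts (0.28 ± 0.06, adjusted p = 0.00012), and an intronic peak at 1446 and 1765 counts (0.29 ± 0.08). The lower peaks were those at −95.6 and −8.7 kb from the start (−0.48 ± 0.08 and −0.35 ± 0.09) and an intronic peak whose nearest start was that of PPIF (−0.43 ± 0.07). The peak at −95.6 kb was also the farthest peak inside the 100 kb limit (95649 bp), and the nearest peak outside it lay 103193 bp away with a log2 fold change of −0.05 ± 0.54.

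CDKAL1 and IGF2BP2 act on RNA. CDKAL1 (ENSG00000145996.11, chr6:20534457-21232404, plus strand) encodes a methylthiotransferase that modifies lysine tRNA. Its promoter peak did not pass the test, at an estimated 616 and 574 counts (−0.10 ± 0.10, adjusted p = 0.41), while 8 of its 29 intronic and exonic peaks fell and 1 rose. Among them the smallest adjusted p belonged to a peak 570 kb into the gene (21103558 to 21104719), which went from 100.0 to 36.5 counts (−1.45 ± 0.25, adjusted p = 7.08e-08). Its nearest start site was that of SOX4, not of CDKAL1, and it was an enhancer of the non-senescent list alone. The next were a peak at 165 kb that went from 160 to 78.5 counts (−1.03 ± 0.19, adjusted p = 6.79e-07) and one at 157 kb that went from 450 to 298 counts (−0.59 ± 0.12, adjusted p = 4.89e-06). The other 5 fell by 0.99 to 1.98 on the log2 scale, and 4 of those had mean counts between 18.5 and 31.3.

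One CDKAL1 peak rose. It lay 277 kb into the gene (20810644 to 20812257) and went from an estimated 64.3 to 143 counts (1.15 ± 0.20, adjusted p = 1.58e-07). It stood in neither enhancer list. The 2 peaks of the gene with the most reads, at 319 and 333 kb, differed by −0.43 ± 0.09 and −0.42 ± 0.09 (adjusted p = 5.93e-06 and 2.66e-05), short of the fold. In all, 13 of the 30 peaks were lower and 1 higher at an adjusted p under 0.05, against 20.3% lower and 18.9% higher among all H3K27ac peaks.

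IGF2BP2 (ENSG00000073792.16, chr3:185643130-185825042, minus strand) encodes a protein that binds mRNAs, IGF2 mRNA among them. No H3K27ac peak lay within 2 kb of its starts. Its 1 peak, in an intron (185659445 to 185660622), rose from an estimated 44.8 to 77.3 counts (0.79 ± 0.27, adjusted p = 0.0122). The start nearest to that peak was that of SENP2.

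ADCY5, DGKB and ARAP1 act in signalling. ADCY5 (ENSG00000173175.16, chr3:123282296-123449090, minus strand) encodes an adenylate cyclase, which makes cyclic AMP. It had no H3K27ac peak at a start site and 4 in its introns, of which 2 rose and 1 fell. The peak 39.1 kb into the gene (123409164 to 123410825) rose from 44.7 to 112 counts (1.32 ± 0.23, adjusted p = 1.40e-07), and the peak at 102 kb rose from 69.0 to 117 counts (0.76 ± 0.21, adjusted p = 0.00123). Both were enhancers of the senescent list alone, and the gene held no enhancer of the non-senescent list. Between them a peak of low count fell from 46.2 to 25.3 counts (−0.87 ± 0.33, adjusted p = 0.0244). The peak with the larger rise began 2312 bp from a start of a shorter transcript, just outside the 2 kb window, while the TCF7L2 peak over exon 7 began 496 bp from one.

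DGKB (ENSG00000136267.14, chr7:14145049-14974777, minus strand) encodes a kinase that turns diacylglycerol into phosphatidic acid. It had no H3K27ac or CTCF peak at a start site. None of its 12 H3K27ac peaks was called. The peak with the most reads, 8296 bp wide and nearest to the start of ETV1, went from an estimated 1042 to 744 counts (−0.49 ± 0.08, adjusted p = 3.40e-08), while one in mid gene went from 275 to 408 counts (0.57 ± 0.12, adjusted p = 9.70e-06). Both differences were short of a fold of 1.5.

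ARAP1 (ENSG00000186635.16, chr11:72685069-72793599, minus strand) encodes a GTPase-activating protein for small GTPases of the Arf family. Its strongest H3K27ac signal was a domain of 39469 bp (72755805 to 72795274) that also covers start sites of the neighbouring gene STARD10, a lipid transfer protein gene of the same risk locus, so the signal cannot be assigned to either gene. The domain had the highest mean count of all 120 peaks (8771) and gave −0.19 ± 0.05 (adjusted p = 0.00207). The promoter peak over exon 1 of the canonical transcript was far weaker (169 counts) and gave 0.08 ± 0.15. A peak at internal starts went from 2866 to 3394 counts (0.24 ± 0.07, adjusted p = 0.00175).

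WFS1 (ENSG00000109501.15, chr4:6269849-6303265, plus strand) encodes wolframin, a membrane protein of the endoplasmic reticulum whose loss causes Wolfram syndrome. Its promoter peak was 15135 bp wide and gave 5500 and 5220 counts (−0.08 ± 0.06, 95% interval −0.19 to 0.04, adjusted p = 0.333). None of its 5 peaks passed the adjusted p. Per kb it was the strongest promoter peak of the members, at 354 normalized counts per kb, above 91.4% of all promoter peaks.

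By level per kb of the promoter peak with the most reads, the 7 members with one followed in the order WFS1 (354 counts per kb), CDKAL1 (223), ARAP1 (222, the domain shared with STARD10), ZMIZ1 (195), TCF7L2 (165), JAZF1 (152) and HHEX (85.3). The place of ARAP1 depends on the peak, since its peak at internal starts had 292 counts per kb and that of its canonical start 64.6. These means carry no error, so neighbours in this order cannot be told apart by their spread. IGF2BP2, ADCY5 and DGKB had no promoter peak. Of the members' 11 H3K27ac peaks in promoter windows, 3 were called, all lower, at HHEX and at internal starts of TCF7L2 and JAZF1, against 14.3% called among all promoter peaks.

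**Figure D3:**
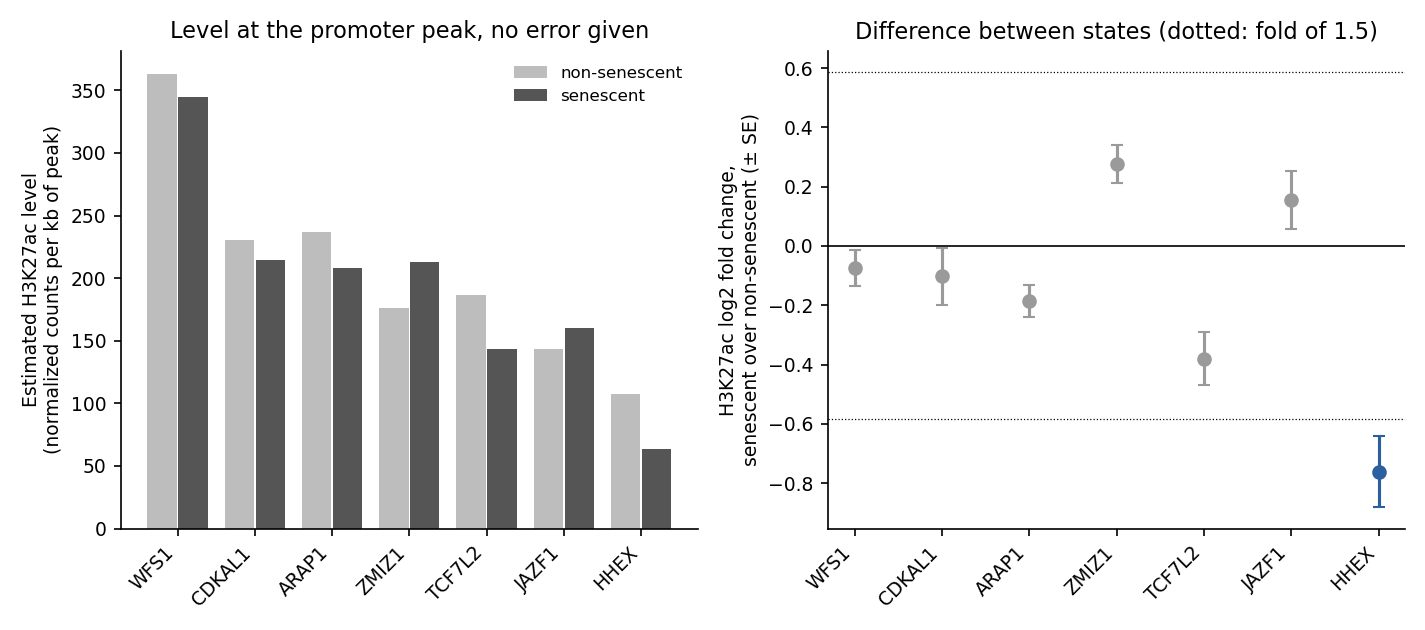
H3K27ac at the promoter peak with the most reads of each of the 7 members that had one. The left panel shows estimated levels per kb of peak in non-senescent and senescent cells, without error, and the right panel the log2 fold change with its SE. HHEX, the lowest bar, is the 1 promoter past the fold of 1.5 (−0.76), and ZMIZ1 and JAZF1 lie above 0. The ARAP1 bar is the domain it shares with STARD10.

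CTCF differed at few peaks of these genes. Of 79 CTCF peaks, 51 had an adjusted p, and of those 2 were lower and 1 higher in senescent cells (5.88%, against 7.27% of all CTCF peaks with an adjusted p). All 3 also had an adjusted p under 0.05. None of the 3 was called after the trend of the fold change with GC content over all peaks had been removed. After that removal 2.54% of all CTCF peaks were called, and the values after removal are given beside each of the 3. Of the 79 peaks, 44 had a mean under 50 normalized counts. Allowing 1 mismatch, the core CTCF motif stood in 39.2% of the members' peaks, in 47.2% of all CTCF peaks and in 6.93% of regions shifted by 10 kb. The calls and shares above were not limited to peaks with the motif, whereas the study reports its CTCF differences for loci with the motif.

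The 3 peaks are shown with the closest match to the core motif, in capitals, and 9 bases on either side, on the plus strand of hg38. The ADCY5 match has 1 mismatch to the motif, and 1 other place in that peak is as close. The ARAP1 and CDKAL1 matches have 2 mismatches, and the ARAP1 peak has 4 places that are equally close.
ADCY5, chr3:123447544-123447573: gaacacggtCCACCAGATGCCctcagaggc
ARAP1, chr11:72764583-72764612: ccatagcccCCAGCAGGCAGCactgctgcg
CDKAL1, chr6:20564364-20564393: ctaaatataCCAAAAGATGGCactgtttac

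At the ADCY5 promoter (123447452 to 123448884, over exon 1) CTCF went from an estimated 258 to 139 normalized counts in senescent cells, −0.90 ± 0.18 (adjusted p = 2.67e-04). No H3K27ac peak overlapped it. The peak had 73.5% G and C, and with the GC trend removed the value was −0.53 (adjusted p = 0.131), short of the fold. The other well covered CTCF peak of ADCY5, over exon 6, gave 332 and 314 counts (−0.08 ± 0.13). Over all CTCF peaks in promoter windows the median was −0.17.

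In the domain shared by ARAP1 and STARD10, a CTCF peak (72764019 to 72765099) went from 188 to 116 counts, −0.69 ± 0.19 (adjusted p = 0.0187). It lay in an enhancer of the non-senescent list alone, and with the GC trend removed it gave −0.54 (adjusted p = 0.182), short of the fold. The other CTCF peaks in that domain gave −0.12 ± 0.21 and −0.17 ± 0.13 and did not pass the test. In a CDKAL1 intron 29.9 kb from the start, CTCF went from 81.4 to 137 counts, 0.75 ± 0.22 (20563716 to 20564934, adjusted p = 0.0322). That peak had 30.2% G and C and overlapped an H3K27ac peak of low count, and with the GC trend removed it gave 0.57 (adjusted p = 0.246). The TCF7L2 peak at internal starts (113125909 to 113127509), the strongest promoter CTCF peak of that gene, gave 418 and 383 counts (−0.13 ± 0.12, adjusted p = 0.578).

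**Figure D4:**
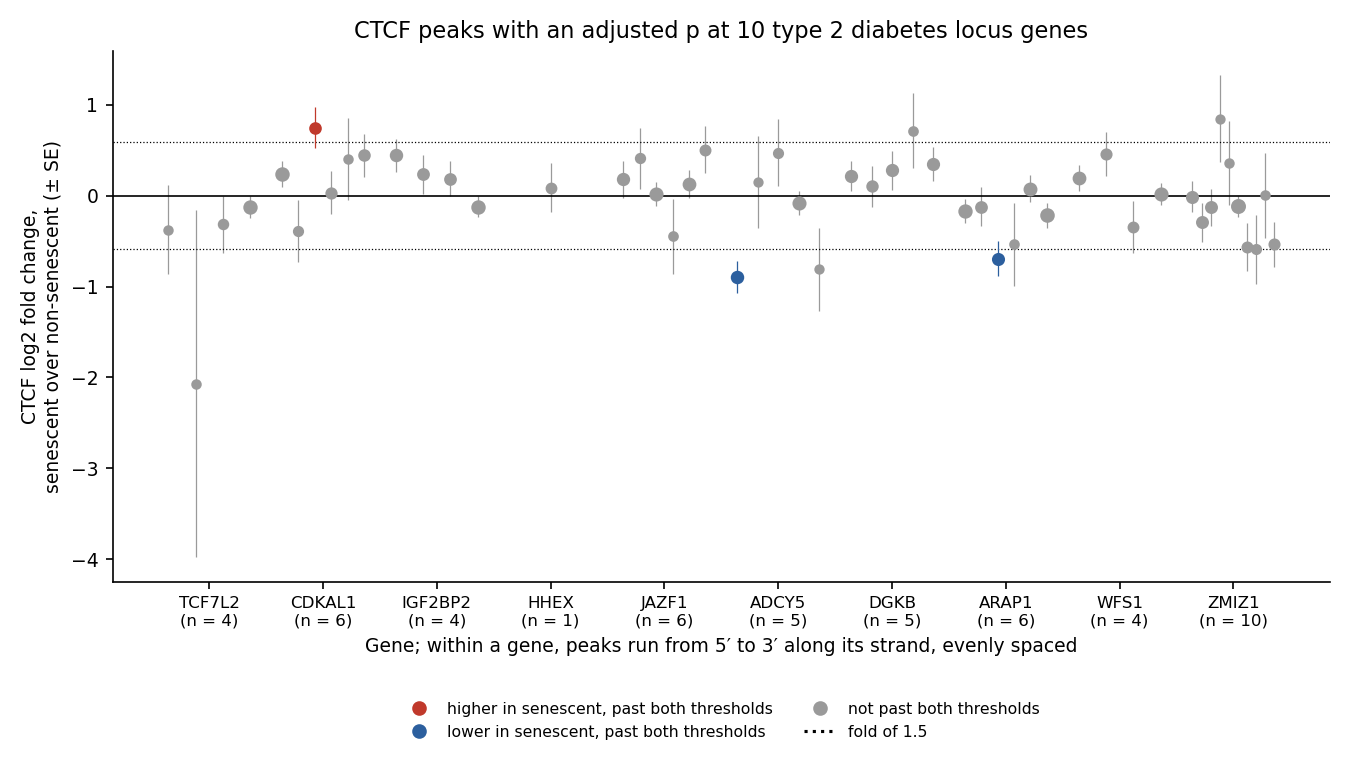
CTCF log2 fold change (senescent over non-senescent, y axis, bars are the SE) of the 51 member peaks with an adjusted p, grouped by gene and ordered 5′ to 3′. Dotted lines mark a fold of 1.5. The 3 called peaks are those of ADCY5 (−0.90), ARAP1 (−0.69) and CDKAL1 (0.75), and the TCF7L2 point at −2.07 has an SE of 1.91.

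The deposited enhancer lists of the 2 states held 45 non-senescent and 40 senescent enhancers at these genes. Of the 45, 7 overlapped no senescent enhancer (15.6%, against 29.4% of the whole list), and of the 40, 5 overlapped no non-senescent one (12.5%, against 20.5%). Where a reciprocal overlap of 50% was asked for, the 7 became 15 and the 5 became 10. The shares of the whole lists under that rule were not computed, so those counts are not a result about the members. The 7 were 2 each at TCF7L2, ARAP1 and ZMIZ1 and 1 at CDKAL1. The 5 were 2 each at ADCY5 and CDKAL1 and 1 at JAZF1. TCF7L2 went from 9 listed enhancers to 6, over 25.6 and 18.5 kb. Besides the 2 without a senescent counterpart, neighbouring ones overlapped the same wider senescent enhancer (113015081 to 113022587). ARAP1 went from 2 to 0, both inside the domain shared with STARD10, whose H3K27ac gave −0.19 ± 0.05. The 2 of ZMIZ1 in the non-senescent list alone lay in a peak that gave 0.01 ± 0.12. ZMIZ1 went from 16 to 12 while the length covered went from 70.7 to 86.5 kb. IGF2BP2 had none in either list. The lists rest in part on the same H3K27ac libraries as the fold changes, so they are no second measurement of them. Membership of 1 list did not fix the sign, since a CDKAL1 peak over an enhancer of the senescent list alone (20631987 to 20633334) gave −0.55 ± 0.23. The deposited list for the retinoblastoma protein Rb holds 2435 regions called in senescent over non-senescent cells. It rests on 2 Rb libraries per state and, per the study's methods, on an unadjusted p. None of the regions lay at a member, the nearest 665 kb from CDKAL1. The share of all genes with such a region was not computed, so this is no result about the members. The list does not show where Rb is bound in both states.

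Other genes that name type 2 diabetes loci were read in the same way, from a list of 54 made from general knowledge. Of the 54, 42 had an H3K27ac promoter peak, of which 1 rose and 4 fell, beside the 14.3% called among all promoter peaks. The 1 that rose was PEPD, a dipeptidase (0.67 ± 0.09). Those that fell were PRC1, a cytokinesis protein (−1.22 ± 0.10), TCF19 (−1.21 ± 0.22) and the neighbours C2CD4A (−0.80 ± 0.10) and C2CD4B (−0.75 ± 0.09). The median over the 42 was 0.01, against 0.03 over all promoter peaks. For CTCF, 31 of these genes had a promoter peak with an adjusted p, and 4 fell and 0 rose, against 6.34% called among all CTCF peaks in promoter windows (489 lower and 54 higher). Among them were TCF19 (−2.15 ± 0.49, mean 19.9 counts), PRC1 (−1.17 ± 0.43, mean 25.7 counts, adjusted p = 0.102) and ABCC8, the sulfonylurea receptor (−0.87 ± 0.22). The GC correction was not run for these promoters. With a promoter window of 1 kb the CTCF count was 2, and the share called among all CTCF peaks in such windows was not computed. With the 1.5-fold minimum dropped, 26 of the 42 H3K27ac promoters passed, 14 higher and 12 lower, against 39.2% of all H3K27ac peaks. That share over promoter peaks alone was not computed. The 42 are the promoter peaks with the most reads of their genes, so the 26 are not a result about these genes.

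The cell line's label was read against H3K27ac at marker promoters. All 11 beta cell markers had a promoter peak, with a median of 288 normalized counts per kb, MAFA being the lowest at 49.5. IAPP rose (0.93 ± 0.15) and PCSK1 fell (−1.41 ± 0.09) among them. Fibroblast, endothelial and gamma cell markers had none of 7. Of 4 alpha cell markers 3 had one but not GCG, of 3 delta cell markers 3 had one, and duct, acinar and leukocyte markers each had 1 (KRT19, CPA1 and CD68). KRT19 fell (−0.74 ± 0.08). The part of these markers in the members' values was not tested. The depth of single libraries is unknown. The normalized mean counts in peaks summed to 19239499 in the H3K27ac table and 6136424 in the CTCF table. The median SE was 0.26 for the members' H3K27ac peaks and 0.38 for their CTCF peaks, against 0.19 and 0.29 over all peaks.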

How the data were processed

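Per the study's methods, the authors aligned ChIP-seq reads of EndoC-βH3 cells to hg38, called peaks against input, filtered CTCF peaks for a motif and compared raw reads in peaks between states with DESeq2; tool versions were not given in the sources used here. The deposited signal of a peak is its read count after division by size factors, averaged over libraries. The deposited log2 fold changes and SEs, the Wald score (log2 fold change over SE) and the p-values and Benjamini-Hochberg adjusted p-values are the authors'. These columns are their comparison of the 2 states; they are used here because the tables hold no value per library, so no model was refitted where a count test had been planned for the case of counts. An adjusted p was missing for 11972 of 51457 CTCF peaks, which stayed uncalled. At the study's thresholds, 1690 of the deposited CTCF peaks were lower and 1180 higher. Both counts are above those the study reports for loci with the CTCF motif. The deposited CTCF peaks were therefore not taken as the motif-filtered set, and CTCF shares and calls given here refer to all of them. Enhancer and Rb lists hold positions alone. H3K4me1 entered only through the enhancer lists.

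A change of a mark across the whole genome cannot be seen in values scaled by size factors. Depth per library is unknown, and intervals are 95% normal intervals from the SE. Peaks were matched to GENCODE 44 genes (promoter 2 kb, nearest start 100 kb), with Python 3.11.15, pandas 2.3.3, scipy 1.17.1 and pysam 0.24.0. Named peaks were the promoter peak with the most reads of each member and, by adjusted p, up to 3 called peaks in each direction; others were added after their values were seen. The steps were tested on simulated data. Alternatives changed the assignment, thresholds, centring, GC trend and minimum count. The members and lists were chosen with earlier results of these data known. The value of 1 gene of the list of other locus genes is not reported here.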

Additional observations from a re-analysis of the deposited data

How the results depend on the processing

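The 19 H3K27ac calls stayed between 14 and 21 under another set of start sites, nearest peaks within 50 kb, promoter and body peaks alone, a minimum mean of 50, a stricter adjusted p, re-adjustment, centring and GC correction, and the same 19 were called after centring and after GC correction. Without a minimum fold 44 of 120 were called, against 39.2% of all peaks, and 32 of them were lower. With a fold above 2 it was 9 (9.71% of all), and in a test against a fold of 1.5 it was 3 (4.64% of all; at TCF7L2, CDKAL1 and ADCY5, the peaks with the smallest adjusted p of their gene), from thresholds that are stricter by construction. Weighting all promoter peaks by mean count called 2 promoters in place of 1, TCF7L2 and HHEX. The 3 CTCF calls became 0 with the GC trend removed, with a fold above 2 and in the test against a fold of 1.5. Of all CTCF peaks with an adjusted p in each setting, 2.54%, 2.24% and 0.0233% were called. Among peaks with the core motif, which are fewer, 1 call was left, against 6.43% of all such peaks with an adjusted p. The 1 CTCF promoter call, ADCY5, became 0 with the GC trend removed; the cause was not tested. The GC correction also turned the sign of an uncalled CTCF peak at the ZMIZ1 start, from −0.13 to 0.19. The H3K27ac median of −0.06 ran from −0.18 (minimum mean of 50) to −0.05, and the CTCF median of 0.02 from −0.07 (peaks with the core motif), a turn of sign, to 0.04. Asking for a reciprocal overlap of 50% left 25 enhancers in 1 list alone in place of 12, and the whole lists were not counted under that rule. Among the 54 other genes, H3K27ac calls went from 5 to 26 without a minimum fold, where 39.2% of all H3K27ac peaks passed. Their CTCF calls went from 4 to 2 with a window of 1 kb, where the share over all CTCF peaks was not computed. No paired analysis was possible because the tables hold no value per library, and leaving out single libraries was not run for the same reason. Counts limit the peaks with a mean under 50, whose median SE was 0.47 against 0.13 for the others, so smaller differences were not detectable there.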
